A study of Caenorhabditis elegans with 5 samples.

Results

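H3K36me3 is trimethylation of lysine 36 on histone H3, a mark of gene bodies under active transcription. In C. elegans MET-1 writes it during transcription, whereas MES-4 maintains it on genes that were active in the parental germline and so carries it into the progeny. SPR-5 removes methylation from H3K4 and MET-2 places methylation on H3K9, both of which are known to act on the chromatin that passes from the parental germline to the embryo. The central part of a C. elegans autosome is rich in broadly expressed genes, and the arms are richer in repeats and H3K9 methylation.

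The regions described here lie in the central parts of chromosomes II, III and IV and were called as H3K36me3 peaks in spr-5; met-2 L1 larvae but not in the wild type. They were chosen from the peak calls themselves. The broad peaks of 4 chromatin immunoprecipitation sequencing (ChIP-seq) libraries were merged wherever 1 bp or more was shared. A merged region was kept when its midpoint lay between 4.879 and 12.02 Mb on II, 3.722 and 10.34 Mb on III or 3.896 and 12.97 Mb on IV, when at least 1 spr-5; met-2 list had a peak there, and when neither wild-type list did. This gave 324 regions, called mutant-only regions below, of 1864 central merged regions and 7653 merged regions on 6 chromosomes. The share of 17.4% of central regions restates the rule and carries no test.

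The mutant carried spr-5 (by101) on chromosome I together with met-2 (n4256) on chromosome III, and the wild type was N2. Each genotype had 2 libraries, and each sample was a pool of 600 starved whole L1 larvae hatched in buffer without food, from animals cultured at 20 °C. Whole larvae are mostly somatic, so a peak present in few cells and a weak peak in many cells cannot be told apart. Whether the 2 libraries of a genotype came from separate cultures is not given in the sources used here, so the spread between them may be technical.

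In both genotypes the replicate 1 list was longer than the replicate 2 list. In the central windows the mutant lists held 1542 peaks (replicate 1) and 706 (replicate 2), against 1474 and 1135 in N2. The mean was 1124 ± 591 peaks in the mutant and 1304.5 ± 240 in N2 (SD, n = 2 each). The difference of -180.5 peaks was smaller in size than either SD. No other assignment of the libraries to the groups gave a smaller one (exact two-sided permutation test, p = 1, where 0.333 is the smallest p this design allows). Within replicate 1 the mutant had 68 more central peaks than N2, and within replicate 2 the difference was -429. Without mutant replicate 2 the difference in means turned to 237.5 peaks, and without mutant replicate 1 it was -598.5. Without N2 replicate 1 it was -11 and without N2 replicate 2 it was -350. The read depth of the libraries is unknown, and the lists hold positions with no score, so absence from a list means only that the authors' threshold was not reached.

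Most mutant-only regions came from 1 library. The mutant replicate 1 list alone called 269 of the 324, the replicate 2 list alone called 45, and 10 were called in both. The 10 regions are 0.536% of the central regions. Over all 6 chromosomes the matching shares were 21.7% of merged regions for at least 1 mutant list and 0.405% for both. Taken singly, mutant replicates 1 and 2 called 75% and 31.5% of the central regions, against 73.2% and 48.6% for N2 replicates 1 and 2. In the other direction 409 central regions (21.9%) were called in N2 and in neither mutant list, of which 24 (1.29%) were in both N2 lists. Both counts, and which of them is larger, rest on single libraries. Without N2 replicate 1, 877 regions were mutant-only and 221 were N2-only, and 88 of the mutant-only ones were in both mutant lists. Without N2 replicate 2 there were 356 mutant-only and 264 N2-only regions. Without mutant replicate 1 there were 81 mutant-only and 1166 N2-only regions, and without mutant replicate 2 there were 279 and 424. The replicate 1 lists taken alone gave 304 mutant-only and 271 N2-only regions.

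**Figure D1:**
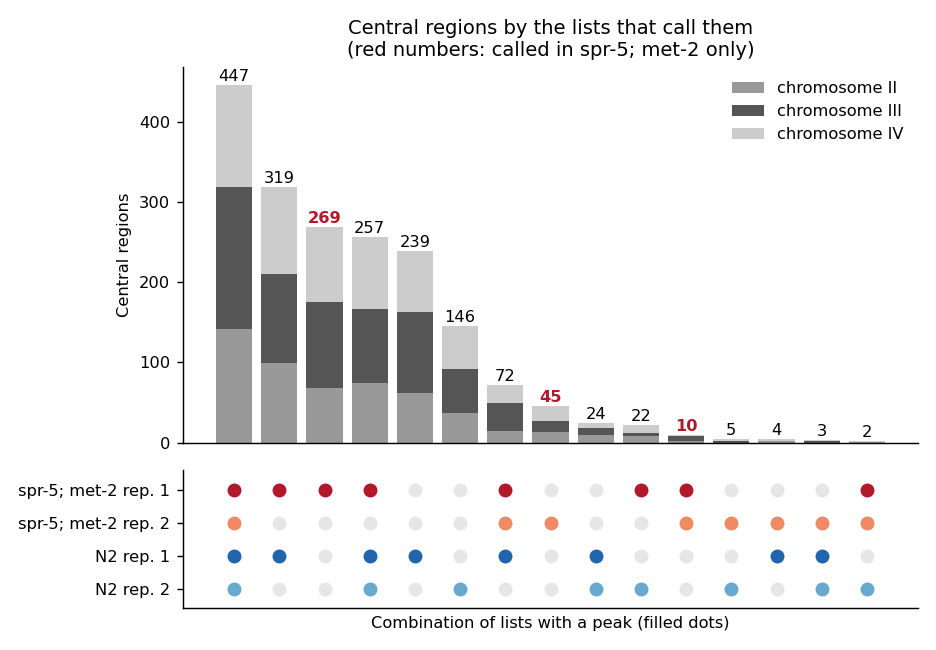
Number of central merged regions (vertical axis) for each combination of lists with a peak, shown by filled dots, with bars divided by chromosome. The 3 combinations with no N2 peak, with red numbers, hold 269, 45 and 10 regions, against 447 regions called in all 4 lists.

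Mutant-only regions held 18.1% of the peaks that mutant replicate 1 had in central regions (279 of 1542) and 7.80% of those of mutant replicate 2 (55 of 705). The matching shares of N2-only regions were 17.9% for N2 replicate 1 (263 of 1473) and 15.0% for N2 replicate 2 (170 of 1135). The replicate 1 lists thus held nearly the same share of genotype-only peaks, and mutant replicate 2 held the lowest. By covered length the mutant-only regions were a minor part of each list. They held 111.1 kb of mutant replicate 1, which is 3.75% of its central covered length, and 15.5 kb of mutant replicate 2, which is 5.23%. In N2 the N2-only regions held 3.03% (replicate 1) and 3.26% (replicate 2).

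In the 10 regions called in both mutant lists, the replicate 1 interval was the longer one each time, by 10 bp in 1 region on IV and 11 bp in 1 on III and by more in the others. Peaks of replicate 1 were also the wider ones elsewhere, with a median of 1624 bp against 188.5 bp in replicate 2 over the other central regions. Replicate 1 covered between 54 and 4284 bp of a region, with a median of 520.5 bp, and replicate 2 between 44 and 166 bp, with a median of 87.0 bp. In 7 of the 10 the replicate 2 peak lay wholly inside the replicate 1 peak. The bases called in both mutant lists came to 716 bp over the 10 regions, of 11550 bp in replicate 1 and 931 bp in replicate 2. Both N2 lists cover 0 bp of these regions by the rule. Coordinates are those of the files, in build ce10 per the submitters' processing notes. The gene table at hand is of another build, so no gene is named for these positions and no sequence is shown.

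On chromosome II, the region from 9360783 to 9361206 had 424 bp called in mutant replicate 1 and 130 bp in replicate 2, the most bases shared by the mutant peaks of any of the 10. An N2 replicate 1 peak lay 1193 bp to its right, and the nearest N2 replicate 2 peak was 7614 bp away. The other region on II, from 11260094 to 11261114, had 1021 bp called in mutant replicate 1 and 68 bp in replicate 2. It was the most isolated of the 10, with 19424 bp to the nearest N2 peak on the left and 28621 bp on the right, and no other peak of any list stood within 15 kb of its centre.

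Chromosome III held 6 of the 10. The widest, from 5391673 to 5396057, had 4284 bp called in mutant replicate 1 and 127 bp in replicate 2, and these peaks met over only 26 bp at its left end. N2 replicate 1 peaks flanked it at 1479 bp and 1942 bp. At 5264173 to 5264461 the mutant lists covered 177 bp and 166 bp, of which 54 bp were shared, and an N2 replicate 1 peak lay 1023 bp away. It was one of only 2 of the 10 in which replicate 2 covered at least 50% of the region.

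The region from 8307690 to 8308251 on III was the nearest of the 10 to an N2 peak, which began 79 bp from its right edge in N2 replicate 1. That N2 peak belonged to a region of 94 bp that no mutant list called. Mutant replicate 1 covered 562 bp here and replicate 2 covered 66 bp. At 9409206 to 9409684 the mutant lists covered 479 bp and 45 bp, with the nearest N2 peak 2753 bp to the left, in a region called in all 4 lists. These 4 regions on III all had an N2 peak within 2753 bp, whereas the remaining 2 were farther from any N2 peak.

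At 5069200 to 5069429 on III, mutant replicate 1 covered 230 bp and replicate 2 covered 56 bp, and the nearest N2 peak was 9947 bp away. At 10051866 to 10052767 the mutant lists covered 902 bp and 123 bp, and the stretch between the flanking N2 peaks was 103.8 kb long, the longest around any of the 10. Its nearest N2 peak lay 11569 bp to the right and the next on the left was 91291 bp away.

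Chromosome IV held the last 2 regions. The wider, from 11373357 to 11376773, had 3417 bp called in mutant replicate 1 and 106 bp in replicate 2. Peaks of both N2 lists ended close to its left side, at 1565 bp (replicate 1) and 1791 bp (replicate 2), and the next N2 peak on the right was 29813 bp away. The narrower, from 11431886 to 11431941, was the shortest of the 10, with 54 bp in mutant replicate 1 and 44 bp in replicate 2. Its peaks shared 42 bp, and the nearest N2 peak was 5582 bp away.

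**Figure D2:**
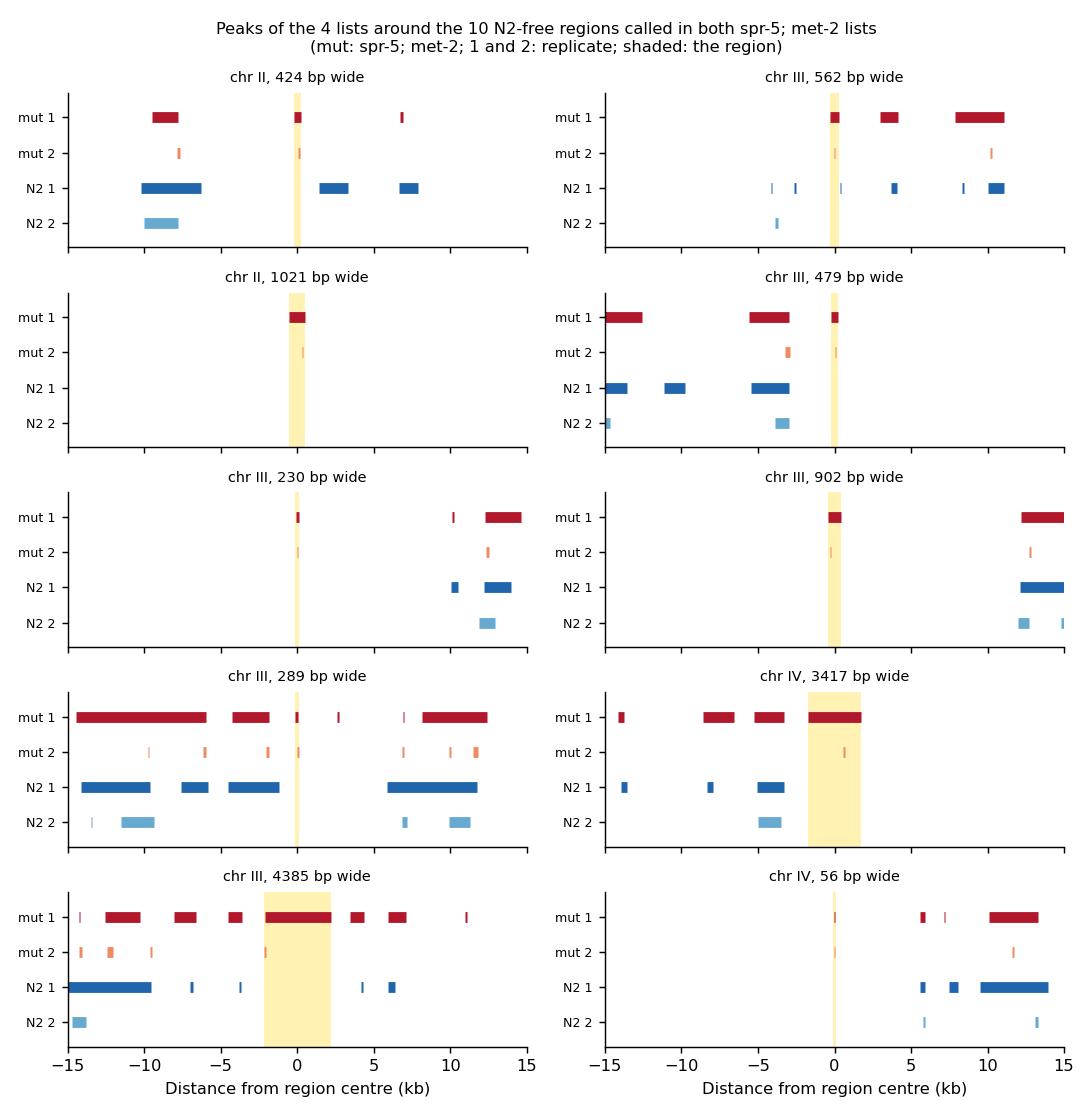
Peaks of the 4 lists (rows) within 15 kb of the centre of each of the 10 regions called in both mutant lists and no N2 list, drawn to scale, with peaks under 60 bp drawn at 60 bp and the region shaded (drawn at least 240 bp wide). The mutant replicate 2 peak covers at most 166 bp in every panel, and in the panel of 1021 bp no list has another peak in the window.

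The median distance from a mutant-only region to the nearest N2 peak was 1573 bp, edge to edge, with an interquartile range from 649.5 to 4841 bp. By class the median was 2159 bp for the 10 regions in both lists, 1577 bp for those in replicate 1 only and 1185 bp for those in replicate 2 only. The 409 N2-only regions had a median of 1728 bp to the nearest mutant peak, so regions missing from the mutant lists lay about as near to mutant peaks as mutant-only regions lay to N2 peaks. Without N2 replicate 1 the median over the regions that then met the rule was 3921 bp, and without mutant replicate 1 it was 633 bp.

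A distance of 1200 bp has a meaning in these files. The smallest gap between neighbouring peaks was 1201 bp in 3 lists and 1202 bp in N2 replicate 2, so no list holds neighbouring peaks that are nearer than this. Of the mutant-only regions, 131 (40.4%) lay within 1200 bp of an N2 peak, and 166 of the N2-only regions (40.6%) lay within 1200 bp of a mutant peak. The share was 3 of the 10 in both mutant lists, 105 of 269 (39.0%) in replicate 1 only and 23 of 45 (51.1%) in replicate 2 only. When peaks within 1200 bp of each other were merged across lists, 191 regions met the rule, of which 9 were in both mutant lists, and their median distance was 3650 bp.

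**Figure D3:**
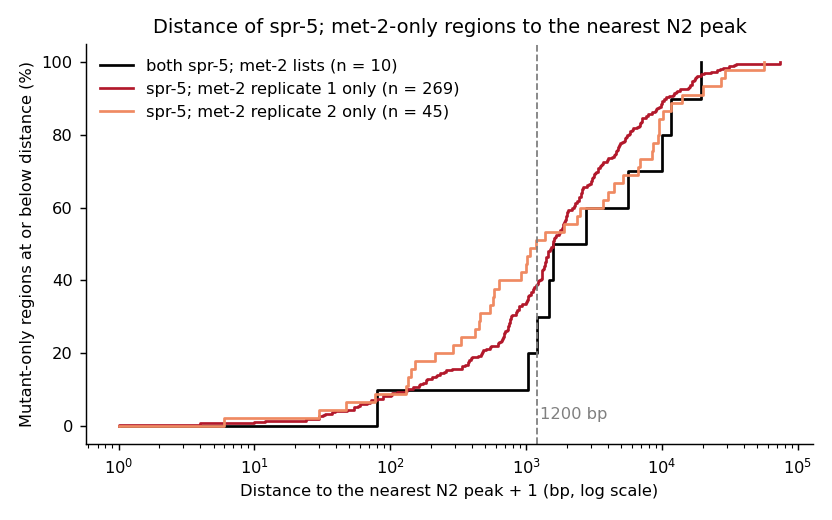
Cumulative percentage of mutant-only regions (vertical axis) by distance to the nearest N2 peak plus 1 bp (horizontal axis, log scale), for the 10, 269 and 45 regions of the 3 classes. The dashed line at 1200 bp lies near the middle of the curves, with 39.0% of the replicate 1 class and 51.1% of the replicate 2 class to its left.

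At the edge of the rule, few regions stood near the overlap of 1 bp that decided membership. The mutant-only regions nearest to an N2 peak were on chromosome III, from 10074890 to 10075218, which abutted an N2 peak at 0 bp, from 5682008 to 5682179, at 3 bp, and from 5785355 to 5785493, at 5 bp. Only 4 regions in all were within 10 bp of an N2 peak. Just outside, the smallest overlaps of a mutant and an N2 peak were 6 bp at 11663838 to 11664077 on IV, 7 bp at 12692297 to 12693688 on IV and 11 bp at 7612875 to 7613204 on II. The mutant-only region nearest to the end of a window had its midpoint 4.27 kb inside it, at 3726168 to 3726365 on III.

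The nearest N2 peak was from N2 replicate 1 for 268 of the 324 regions (82.7%) and from N2 replicate 2 for 55 (17.0%), with 1 tie. N2 replicate 1 held 82.4% of the summed central covered length of the N2 lists and 56.5% of their central peaks. For 122 regions (37.7%) that nearest peak lay in a region called in N2 only. N2-only regions were 26.6% of the central regions with an N2 peak. For 72 regions (22.2%) it lay in a region called in all 4 lists, which made up 29.0% of the central regions with an N2 peak. Within 1200 bp, 77 mutant-only regions (23.8%) had an N2-only region as their nearest N2 neighbour, and by the rule neither overlapped the other. The gap that each list keeps between its own peaks restricts which N2 peaks near a mutant-only region can overlap a mutant peak. It can thus favour N2-only neighbours at short distance, and the size of this effect was not tested. The shares over all central regions with an N2 peak carry no such limit and are not a matched background. A region called in all 4 lists lay within 1200 bp of 25 (7.72%), and the median distance to such a region was 10.7 kb. Neighbouring peaks within each mutant list were at least 1201 bp apart, and a region called in all 4 lists holds peaks of both. This limits how near a mutant-only region can lie to one, so the share is no result about position.

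Mutant-only regions were narrow. Their median width was 187.5 bp, 174 of the 324 (53.7%) were under 200 bp and 29 were at least 1000 bp wide. The median was 3956 bp for central regions called in all 4 lists, and those called in both genotypes but not in all lists had one of 1805 bp. A wide peak is more likely to share 1 bp with an N2 peak, so the rule itself favours narrow peaks. This also bears on the widths within each list given below. A region merged from several lists spans all their peaks, which adds to its width. The N2-only regions had a median of 184 bp and 231 of 409 (56.5%) were under 200 bp, close to the mutant-only values. Without N2 replicate 1 the median width of the regions that met the rule was 413 bp, and without mutant replicate 1 it was 126 bp.

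The same held within each mutant list. In mutant replicate 1 the peaks in mutant-only regions had a median width of 201 bp, against 1624 bp for its 1263 peaks in other central regions. Peaks under 200 bp made up 49.1% in mutant-only regions, against 11.3% in the others. In mutant replicate 2 the median was 123 bp in mutant-only regions, against 188.5 bp for its 650 peaks in other central regions, and 87.3% against 52.6% were under 200 bp. N2 peaks in N2-only regions were narrow in the same way, with medians of 227 bp against 1735.5 bp in replicate 1 and 113.5 bp against 263 bp in replicate 2.

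**Figure D4:**
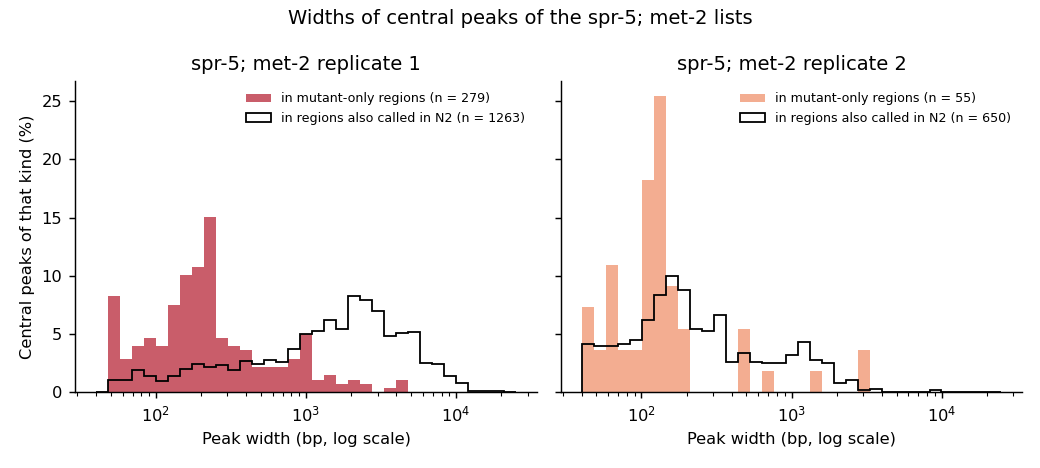
Widths of central peaks (log scale) in the replicate 1 list (left) and the replicate 2 list (right) of spr-5; met-2, as a percentage of the peaks of each kind. Filled bars are peaks in mutant-only regions and outlines are peaks in regions also called in N2. The filled bars sit to the left in both lists, with medians of 201 and 123 bp against 1624 and 188.5 bp.

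The 29 mutant-only regions of at least 1000 bp held 57.3 kb, which is 45.5% of the summed width of all 324. They were no nearer to N2 peaks than the narrow ones, with a median distance of 1575 bp against 1476.5 bp for regions under 200 bp. On chromosome II the widest region of replicate 1 alone ran from 6362026 to 6366528, 4503 bp, the widest of all mutant-only regions. It stood 1133 bp from an N2 peak on the left and 4794 bp from one on the right. The next on II were 1800 bp wide at 11707368 to 11709167 and 1638 bp wide at 6976198 to 6977835, with N2 peaks 5361 bp and 2264 bp away.

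On chromosome III the widest regions of replicate 1 alone were 2596 bp at 4431702 to 4434297, 2073 bp at 9570738 to 9572810 and 1127 bp at 5993265 to 5994391. The nearest N2 peaks lay 2566 bp, 754 bp and 3018 bp away. On chromosome IV they were 4106 bp at 9334920 to 9339025, 2631 bp at 11320142 to 11322772 and 2206 bp at 8753676 to 8755881, with N2 peaks at 1279 bp, 1404 bp and 1913 bp. The nearest N2 peak belonged to an N2-only region for the last 2 on IV and for the 2073 bp region on III. Those N2-only regions were 174 bp, 168 bp and 507 bp wide. The 9 wide regions named here therefore each had an N2 peak between 754 and 5361 bp away.

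Among regions of replicate 2 alone, 3 were at least 1000 bp wide, although the class had a median of 131 bp. On III the region from 5353150 to 5356421 was 3272 bp wide, 3972 bp from the nearest N2 peak and 4054 bp from the nearest peak of mutant replicate 1. On IV the region from 6357817 to 6361083 was 3267 bp wide, 9443 bp from an N2 peak and 8804 bp from a peak of mutant replicate 1. The third, on III, was named after its values were seen: it ran from 7595531 to 7597063, 1533 bp, at 4468 bp from an N2 peak and 4376 bp from a peak of mutant replicate 1. These 3 wide intervals in the short list were thus absent from the long list of the same genotype. The widest region of this class on II, from 9404851 to 9405324, was 474 bp wide.

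Some regions of replicate 2 alone stood beside peaks of replicate 1. Of the 45, 18 lay within 1200 bp of a mutant replicate 1 peak, and 13 of these 18 also lay within 1200 bp of an N2 replicate 1 peak. A further 6 were near an N2 replicate 1 peak alone, and 21 were near neither. Of the 146 N2-only regions of N2 replicate 2 alone, 65 (44.5%) lay within 1200 bp of a mutant replicate 1 peak. Within the same distance, 60 (41.1%) had an N2 replicate 1 peak. Of the 269 regions of replicate 1 alone, 236 had no replicate 2 peak of either genotype within 1200 bp, 22 had only an N2 one, 9 had only a mutant one and 2 had both. The N2 replicate 2 list was the longer one, with 1135 central peaks against 706. Of the 239 N2-only regions of N2 replicate 1 alone, 26 (10.9%) were as near to an N2 replicate 2 peak and 5 (2.09%) to a mutant one. By definition no region of these classes overlapped a peak of the other replicate number, so these counts are descriptions only.

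The regions farthest from any N2 peak, named here, were 138 to 381 bp wide. The first, on IV from 12930899 to 12931279, was 381 bp wide in mutant replicate 1 and stood 74.4 kb from the nearest N2 peak on the left and 90.0 kb from the one on the right. The second, on IV from 5299202 to 5299342, was a 141 bp interval of mutant replicate 2 at 56.3 kb, and mutant replicate 1 had no peak within 55123 bp. The third, on II from 5785095 to 5785232, was a 138 bp interval of mutant replicate 1 at 35.3 kb. In all, 39 of the 324 regions were more than 10 kb from an N2 peak, and 44 of the 409 N2-only regions were as far from a mutant peak.

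The 2 lists of one replicate number can be used to choose regions and the other 2 to look them up. The rule used these same 4 lists, so this is no independent check of the mutant-only regions. In the replicate 1 lists alone, 304 central regions were called in the mutant and not in N2. Of these, 11 overlapped a mutant replicate 2 peak (3.62%, Wilson 95% interval 2.03 to 6.36%) and 25 overlapped an N2 replicate 2 peak (8.22%, interval 5.63 to 11.9%). Over all 1671 central regions of the replicate 1 lists, 32.1% overlapped a mutant replicate 2 peak and 45.3% an N2 replicate 2 peak. The count was thus higher for N2 replicate 2, the longer list, both for the 304 regions and for all regions. Of the 304, 10 overlapped a peak of the mutant replicate 2 list alone, 24 of the N2 replicate 2 list alone, 1 of both and 269 of neither. The 10 and the 269 are also the counts that the rule gave for both mutant lists and for mutant replicate 1 alone.

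Regions called only in N2 in replicate 1 behaved in a similar way. Of 271, 7 overlapped a mutant replicate 2 peak (2.58%, interval 1.26 to 5.23%) and 28 overlapped an N2 replicate 2 peak (10.3%, interval 7.25 to 14.5%). The ratio of mutant to N2 overlaps was 0.44 for mutant-only regions of replicate 1, 0.25 for N2-only regions and 0.736 for the 1096 regions called in both genotypes. The intervals given here cover counting error only and take regions as independent, which they are not, so they were not used to compare shares and no test over regions was made.

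**Figure D5:**
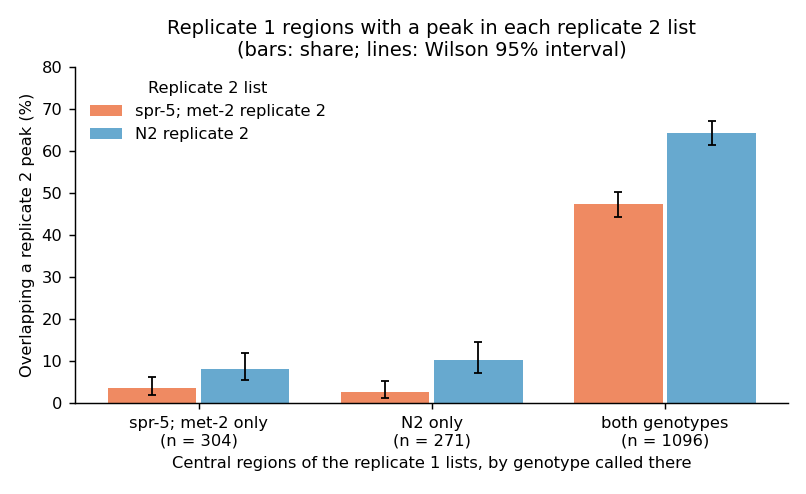
Percentage of central regions of the replicate 1 lists (vertical axis) that overlap a peak of the mutant replicate 2 list (left bar) or the N2 replicate 2 list (right bar), by the genotype called in replicate 1. Lines are Wilson 95% intervals for counting error. Regions called in the mutant only reach 3.62% and 8.22%, against 47.3% and 64.2% for regions called in both genotypes.

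The reverse look-up gave nearly equal shares. In the replicate 2 lists alone, 335 central regions were called in the mutant only, of which 263 (78.5%, interval 73.8 to 82.6%) overlapped a mutant replicate 1 peak and 254 (75.8%, interval 71.0 to 80.1%) an N2 replicate 1 peak. Over all 1465 central regions of the replicate 2 lists these shares were 79.3% and 78.9%. Of the 335, 227 overlapped peaks of both genotypes in replicate 1, 36 of the mutant alone and 27 of N2 alone, and 45 of neither. The 45 is also the count that the rule gave for mutant replicate 2 alone. Most regions that looked mutant-only in replicate 2 therefore had a peak in both genotypes in replicate 1. So did 475 of the 768 regions called only in N2 in replicate 2 and 347 of the 362 called in both genotypes. This is therefore no trait particular to the mutant-only ones.

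The number of mutant-only regions per Mb differed between chromosomes more than their share did. Chromosome III had 127 (19.2 per Mb of window), IV had 114 (12.6 per Mb) and II had 83 (11.6 per Mb). As a share of the central regions of each chromosome these were 17.8% on III, 18.5% on IV and 15.6% on II, given as a description with no test. N2-only regions had shares of 23.1% on III, 22.0% on IV and 20.3% on II. Regions in both mutant lists numbered 6 on III, 2 on IV and 2 on II.

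In whole 1 Mb steps the share of mutant-only regions lay between 8.14% and 23.4%. The lowest was on IV from 8 to 9 Mb, with 7 mutant-only regions of 86, where 26 regions were N2-only. The highest among whole steps was on IV from 6 to 7 Mb, with 11 of 47, where 6 were N2-only. The last, shorter step on IV, from 12 to 12.97 Mb, had 23 of 86 (26.7%) beside 19 N2-only regions. These steps were named after their values were seen.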

How the data were processed

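Per the labels' protocols, chromatin of whole L1 larvae was fixed with 1% formaldehyde, sonicated, immunoprecipitated with 5 µg of an H3K36me3 antibody and sequenced as 50 bp single-end reads. The submitters' processing notes name FastQC, Bowtie2, deepTools, MACS2 and bedtools and the build ce10, with no versions or settings. The peak threshold, the control and the read depth are not given in the sources used here. The authors deposited 1 list of broad peaks per ChIP library with chromosome, start and end, and no score. The input library, titled as N2 replicate 2, was not analysed here.

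From these lists, merged regions, widths and edge-to-edge distances were computed in Python 3.11.15 (numpy 2.4.6, scipy 1.17.1), with starts printed as 1-based. The code was checked against a base-by-base count on simulated lists. The number of central peaks was compared with an exact permutation test over 6 assignments of the libraries; other values are descriptions. Named regions were all in both mutant lists, the 3 widest per chromosome of replicate 1 alone and the widest of replicate 2 alone, the 3 farthest from N2 peaks and the 3 on each side of the overlap threshold. Regions, rules and comparisons were chosen with earlier results of these data known. Alternatives were a 500 bp minimum width, merging within 1200 bp, 50% cover of a region, windows shortened by 0.5 Mb, the 1938 widest peaks of each list, a replicate block, and leaving out each library in turn. Merging of abutting peaks was added after seeing the data.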

Additional observations from a re-analysis of the deposited data

How the results depend on the processing

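The number of mutant-only regions was 139 with a minimum peak width of 500 bp, 191 with peaks within 1200 bp merged, 207 when each list kept its 1938 widest peaks and 476 when a list had to cover 50% of a region. It ranged from 81 to 877 when 1 library was left out. Regions in both mutant lists numbered 6, 9, 16 and 5 under the first 4 settings in that order, and 11 to 88 without 1 N2 library; without a mutant library this count cannot be made. The median distance to an N2 peak was 3705, 3650, 4693 and 685 bp under these settings and 633 to 3921 bp without 1 library. The median width was 1068, 196, 151 and 264.5 bp, and 126 to 413 bp without 1 library. Shortening the windows gave 276 regions, and merging abutting peaks gave 323.

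The difference in central peaks ranged from -598.5 to 237.5 when 1 library was left out. It reversed to 237.5 without mutant replicate 2 (exact permutation p = 0.667 over 3 assignments, of which the smallest possible is 0.333, with N2 alone giving the spread). It was -95 with the 500 bp minimum and -146 with shortened windows. With a replicate block it was -180.5 again (exact sign-flip p = 1); with 2 pairs the smallest p is 0.5, so this fit could change no call. The labels do not say that the numbers pair the samples. In covered length, the deviations of same-numbered libraries from their genotype's mean correlated, with r = 0.84 over 2282 bins of 10000 bp, which are not independent. With 2 libraries per genotype each deviation follows replicate 1 minus replicate 2. Replicate 1 covered more in both genotypes (central 2.96 against 0.296 Mb in the mutant, 3.03 against 0.647 Mb in N2). A high r can therefore arise without pairing, so it cannot show whether the numbers pair the samples.

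The share of replicate 1 mutant-only regions overlapping a mutant replicate 2 peak was 14.0% with peaks of at least 500 bp (21.3% for N2 replicate 2) and 7.89% within 1200 bp (16.1%). Choosing in replicate 2 and looking up in replicate 1 gave 78.5% (75.8% for N2). The N2 share was the higher one in the first 2 settings and the lower one in the last. The cause of these shifts was not tested. Depth is unknown, so the limit it sets on calling a region in the replicate 2 lists cannot be given.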

Other observations

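Some mutant-only regions stood in a row, called a series here. Of the 324, 103 (31.8%) stood next to another mutant-only region with no other region between them, against 145 of 409 N2-only regions (35.5%). Mutant-only regions were 17.4% of the central regions and N2-only regions 21.9%, so a random order would hold such neighbours too. The share that a random order gives was not computed, so these shares cannot show whether the regions cluster. The longest such series had 4 members, as did the longest of N2-only regions. It lay on IV from 12638051 to 12647096, with 3 members from mutant replicate 1 and 1 from mutant replicate 2, in a stretch of 24.6 kb with no N2 peak. Its intervals summed to 987 bp, and the nearest N2 peak was 6090 bp away.

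A series of 3 lay on III from 5353150 to 5371199, in a stretch of 27.1 kb with no N2 peak. It began with the 3272 bp interval of mutant replicate 2 described above. Another member came from replicate 2 and 1 came from replicate 1. The other series of 3 were on III from 9445859 to 9452229, at 202 bp from an N2 peak, and on IV from 6549041 to 6552684, at 457 bp. In each of the 4 series both mutant lists had a member, and no member of any of them was called in both lists. Among all 324 mutant-only regions only 10 were called in both, so this absence is no trait of the series. These series were named after their values were seen, and no test was made of them.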
